A study of Mus musculus with 4 samples.

Results

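The 10 genes described here carry the insulin signal in muscle from the receptor to the glucose transporters. They were chosen by name: Insr, Irs1, Irs2, Pik3r1, Akt1, Akt2, Tbc1d1, Tbc1d4, Slc2a1 and Slc2a4, 10 of the 55573 gene IDs in the count files, each matched to a single ID through GENCODE on GRCm38. Their counts came from RNA-seq of quadriceps, the thigh muscle, at 7 weeks of age. The groups were 2 wild-type (WT) C57BL/6J libraries and 2 libraries of the vitamin D receptor knockout strain B6.129S4-Vdrtm1Mbd/J (genotype vdr-/-), all from mice weaned at 21 days and given chow and water freely. The labels do not say whether the libraries of a group came from separate animals, whether WT and knockout mice were littermates, or what sex they were. The p-values below therefore rest on library-to-library spread only, and that spread may be technical.

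Insulin binds its receptor, a tyrosine kinase encoded by Insr, which phosphorylates the adaptor proteins IRS1 and IRS2. These recruit PI3-kinase, whose regulatory subunit comes from Pik3r1, and the lipid it makes activates the AKT kinases. In muscle and fat, AKT2 phosphorylates TBC1D4 and TBC1D1, which otherwise hold RAB proteins inactive and so keep GLUT4, the transporter encoded by Slc2a4, on vesicles inside the cell. GLUT1, encoded by Slc2a1, sits in the plasma membrane and carries glucose without insulin. Much of this control acts on protein phosphorylation and location, which RNA counts do not measure.

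Library totals ran from 10.79 to 21.34 M counts, with the deepest library in the knockout group. Muscle fibre markers such as Acta1 and Ckm were abundant in all 4 libraries. The summed level of 12 markers was 110230 and 103050 CPM in WT (counts scaled to library size with TMM factors). In the knockout it was lower, at 96493 and 97796 CPM. Of the 12 markers 0 changed by the test used below, with 9 fold changes negative and 3 positive. Xist stood at 183 and 217 CPM in WT and at 0 and 0.256 CPM in the knockout, and the summed Y-linked genes at 118 to 141 CPM in the knockout. WT libraries thus read as female and knockout libraries as male, so that genotype and sex cannot be told apart in any comparison below. WT replicate 1 also held 95 counts of these Y-linked genes, 6.96% of the knockout level, against 1 count in WT replicate 2. Values of the 10 genes and their ratios without that library are given below. Vdr itself had only 5 and 0 counts in the WT libraries, and 5 and 1 in knockout muscle, too few to check the labels.

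None of the 10 genes passed the test for a change between knockout and WT muscle. A gene is counted as changed where the adjusted p of edgeR's quasi-likelihood test, fitted over 13076 genes with Benjamini-Hochberg adjustment, is below 0.05. By that rule 0 of 10 members changed, against 2.03% of all tested genes (265; 1.61% higher and 0.413% lower in the knockout), and 0 of 10 had an unadjusted p below 0.05, as 14% of all tested genes did. DESeq2 and limma-voom also called 0 of the 10. Adjusted p ran from 0.365 for Pik3r1 to 0.981 for Slc2a4. Of the log2 fold changes, given as knockout over WT ± SE, 6 were positive and 4 negative. Their median was 0.06, beside -0.001 over all tested genes. Sizes without regard to sign had a median of 0.20, beside 0.19 over all tested genes. The 2 groups did not overlap for 3 members (Pik3r1 and Akt2 higher in the knockout, Tbc1d1 lower), where 44.7% of all tested genes showed no overlap. A p above the threshold does not show that levels were equal. For 9 of the 10, the 95% interval of the fold change excluded a doubling or a halving, and the interval of Pik3r1 reached 2.32-fold.

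**Figure D1:**
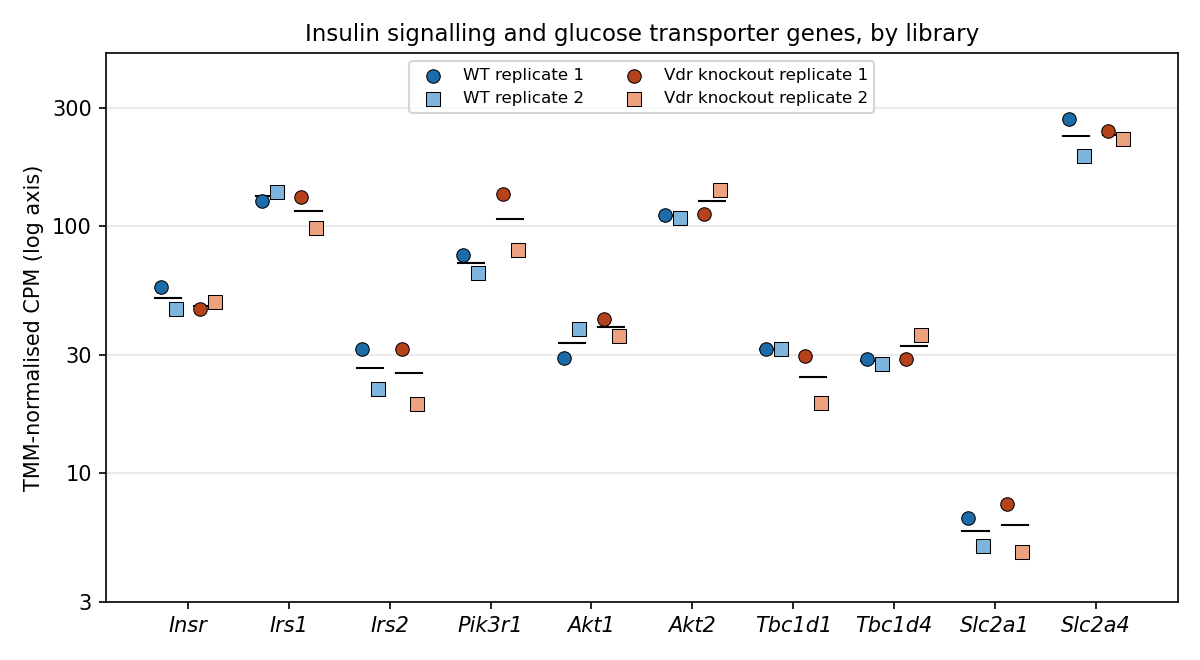
Level of each of the 10 genes in each library, in TMM-normalised CPM on a log axis; circles are replicate 1, squares replicate 2, blue WT, orange Vdr knockout, and short lines the mean of the 2 libraries of a group. Slc2a4 lies highest (192 to 269 CPM) and Slc2a1 lowest (4.77 to 7.46 CPM), and the groups overlap for 7 of the 10 genes.

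Slc2a4 RNA was by far the most abundant of the 10. Levels can be compared between genes only per length, here as CPM per kilobase of exon. On that scale, with CPM scaled by edgeR's TMM factors, as a mean of the 4 libraries ± SD, Slc2a4 stood at 66.6 ± 9.29 and was above 97.6% of all tested genes. Akt2 followed at 16.4 ± 2.08, Irs1 at 13.4 ± 1.89, Akt1 at 8.83 ± 1.31 and Pik3r1 at 8.77 ± 3.07. Then came Irs2 at 4.12 ± 1.04, Tbc1d4 at 3.96 ± 0.493, Tbc1d1 at 3.79 ± 0.816 and Insr at 3.59 ± 0.366, with Slc2a1 lowest at 1.70 ± 0.360. On this scale the steps from Slc2a4 to Akt2, from Akt2 to Irs1, from Irs1 to Akt1, from Pik3r1 to Irs2 and from Insr to Slc2a1 held in all 4 libraries. Their ranges did not overlap. Length was the union of exons, 4098 bases for Akt1 and 13746 for Insr, where the longest transcripts have 2690 and 9355. Irs1 has 9144 by both. A shorter length raises the level per kilobase, so the step from Irs1 to Akt1 and the low place of Insr depend on that choice. Akt1 and Pik3r1 did not differ beyond their spread, with Akt1 the higher in 2 of 4 libraries. Neither did the neighbours among Irs2, Tbc1d4, Tbc1d1 and Insr, whose ranges overlapped. Bulk RNA cannot tell fewer cells of a type from less RNA per cell, and other cell types of muscle add to these levels.

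Insr, the insulin receptor (ENSMUSG00000005534, GRCm38 chromosome 8, 3122061 to 3279617, minus strand), had 56.6 and 45.8 CPM in WT muscle, against 46.1 and 48.9 CPM in the knockout. Both knockout libraries lay between the 2 WT libraries. The log2 fold change was -0.11 ± 0.14 (95% interval of the fold, 0.751 to 1.15; adjusted p = 0.810), and without WT replicate 1 it was 0.05.

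Neither receptor substrate passed the test. Irs1 (ENSMUSG00000055980, chromosome 1, 82233101 to 82291416), the more abundant adaptor, had 126 and 136 CPM in the WT libraries and 131 and 97.5 CPM in knockout muscle. Knockout replicate 1 lay within the WT range and knockout replicate 2 below it. The log2 fold change was -0.20 ± 0.15 (fold 0.689 to 1.10, adjusted p = 0.630). It was -0.002 without knockout replicate 2 and -0.43 without knockout replicate 1. Irs2 (ENSMUSG00000038894, chromosome 8, 10984681 to 11008458), known as the substrate whose RNA follows fasting and feeding in liver, had 31.6 and 21.8 CPM in WT muscle, against 31.8 and 19.0 CPM in the knockout. Each group held a library near 32 CPM and a library near 20 CPM, and the log2 fold change was -0.06 ± 0.29 (fold 0.580 to 1.60, adjusted p = 0.963). Its sign turned without WT replicate 1 (0.24) or without knockout replicate 2 (0.26). On the opposite strand, Gm9747 covers 30.9% of the exon length of Irs1, but it had 0 counts in all 4 libraries.

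Promoter windows ran from 250 bases before to 50 after the start (RefSeq, GRCm38.p6), and Insr and Slc2a4 had none. Of the 8 members with windows, Irs1 and Irs2 were those that hold the E-box CACGTG, a site read by bHLH transcription factors. It was present in 2 of the 14 windows of the members and in 7.15% of all 32851 windows. The windows lie at chr1:82291390-82291689 and chr8:11008880-11009179, both on the minus strand. They are shown 5′ to 3′ with the E-box in capitals, and in Irs2 also AGTTCA, a half-site form of nuclear receptors that 14% of all windows hold on either strand.
Irs1: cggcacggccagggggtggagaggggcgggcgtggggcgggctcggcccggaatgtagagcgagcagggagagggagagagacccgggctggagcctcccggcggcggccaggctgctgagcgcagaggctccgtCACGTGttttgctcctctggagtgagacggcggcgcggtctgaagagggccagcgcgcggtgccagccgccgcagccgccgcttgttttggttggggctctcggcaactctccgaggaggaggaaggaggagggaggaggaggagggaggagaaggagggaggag
Irs2: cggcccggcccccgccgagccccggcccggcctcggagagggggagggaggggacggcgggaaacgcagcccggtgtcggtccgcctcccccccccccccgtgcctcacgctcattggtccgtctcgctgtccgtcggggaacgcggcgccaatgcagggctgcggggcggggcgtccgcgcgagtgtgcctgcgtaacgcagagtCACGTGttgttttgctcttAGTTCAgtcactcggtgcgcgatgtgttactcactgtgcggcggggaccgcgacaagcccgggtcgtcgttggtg

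Pik3r1 stood furthest from WT of the 10. The gene (ENSMUSG00000041417, chromosome 13, 101680563 to 101768217, minus strand) encodes p85-alpha and shorter subunits that hold and inhibit the catalytic part of PI3-kinase until it meets an IRS protein. It had 76.4 and 64.2 CPM in the WT libraries and 134 and 79.4 CPM in knockout muscle. Knockout replicate 1 was far above the other 3 libraries, and knockout replicate 2 lay just above WT replicate 1. The log2 fold change was 0.60 ± 0.25 (fold 0.995 to 2.32, adjusted p = 0.365, unadjusted p = 0.0522). Without knockout replicate 2 it was 0.93 with an adjusted p of 0.0200, and without knockout replicate 1 it was 0.17 with an adjusted p of 0.747. The size of the difference thus rested on knockout replicate 1, the deepest library.

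The deposited count of Pik3r1 sums over isoforms with 2 starts in RefSeq, 75.6 kb apart, so it cannot show which isoform differed. Both windows are printed because they differ in make-up. The upstream start (chr13:101768168-101768467) has 75.7% G and C and 34 CpG, and the downstream start (chr13:101692581-101692880) 43.7% and 6. The median window of all genes has 52.7% and 7 CpG. The motifs searched, on both strands, were the E-box, the FoxO element TGTTTAC, and the nuclear receptor half-site AGGTCA with its variants, AGTTCA being one and GGTTCA the other. Neither window holds any of these letters, so both are in lower case.
Pik3r1 upstream start: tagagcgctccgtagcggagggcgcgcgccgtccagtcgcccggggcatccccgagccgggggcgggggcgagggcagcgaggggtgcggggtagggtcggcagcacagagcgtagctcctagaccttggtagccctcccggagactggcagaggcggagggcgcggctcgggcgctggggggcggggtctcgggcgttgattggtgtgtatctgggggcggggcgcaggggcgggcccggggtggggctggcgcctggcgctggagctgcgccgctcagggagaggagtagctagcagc
Pik3r1 downstream start: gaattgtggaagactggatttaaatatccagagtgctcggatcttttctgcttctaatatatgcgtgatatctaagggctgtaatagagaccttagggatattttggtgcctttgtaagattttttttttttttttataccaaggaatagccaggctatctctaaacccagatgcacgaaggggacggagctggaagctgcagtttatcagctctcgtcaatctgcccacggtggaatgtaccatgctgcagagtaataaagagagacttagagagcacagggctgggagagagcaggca

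Over all members, 8 of 10 had promoter windows from RefSeq, 14 in all, with a median of 62% G and C. Insr and Slc2a4 had no window, so no motif was searched for in them. The vitamin D receptor binds pairs of half-sites with 3 bases between them. No member window held 2 of the half-site forms above in that spacing, as 0.0244% of all windows did. At so low a share, 14 windows are too few for this absence to mean anything, and other half-site forms were not searched. Single half-sites or the FoxO element were found in Akt1, Akt2 and Irs2. AGGTCA was in 1 member window (16.3% of all windows), AGTTCA in 2 (14%), GGTTCA in 1 (10.4%) and TGTTTAC in 1 (3.65%).

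Both AKT kinase genes had positive fold changes that did not pass the test, and the groups overlapped for Akt1 but not for Akt2. Akt2 (ENSMUSG00000004056, chromosome 7, 27591552 to 27640826), the isoform through which insulin moves GLUT4, had 111 and 107 CPM in WT muscle, against 112 and 139 CPM in the knockout. Knockout replicate 1 lay only just above WT replicate 1, and the log2 fold change was 0.20 ± 0.14 (fold 0.932 to 1.42, adjusted p = 0.572). It was 0.04 without knockout replicate 2 and 0.35 without knockout replicate 1. Akt1 (ENSMUSG00000001729, chromosome 12, 112653821 to 112674884), the isoform tied more to growth, had 29.1 and 38.1 CPM in the WT libraries and 41.8 and 35.7 CPM in knockout muscle. The groups overlapped, with a log2 fold change of 0.21 ± 0.16 (fold 0.907 to 1.47, adjusted p = 0.627), which was 0.03 without WT replicate 1.

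The 2 RAB-GTPase-activating proteins had fold changes of opposite sign. Tbc1d1 (ENSMUSG00000029174, chromosome 5, 64156305 to 64351486), the one also phosphorylated by AMP-activated kinase during contraction, had 31.7 and 31.8 CPM in WT muscle, against 29.7 and 19.1 CPM in the knockout. The WT libraries were nearly equal, knockout replicate 1 lay a little below them, and knockout replicate 2 far below. The log2 fold change was -0.37 ± 0.19 (fold 0.577 to 1.04, adjusted p = 0.445), which was -0.09 without knockout replicate 2 and -0.73 (adjusted p = 0.0633) without knockout replicate 1. Tbc1d4 (ENSMUSG00000033083, chromosome 14, 101442360 to 101609191), also known as AS160, had 29.0 and 27.6 CPM in the WT libraries and 28.9 and 36.0 CPM in knockout muscle. Knockout replicate 1 lay just under WT replicate 1, so the groups overlapped. The log2 fold change was 0.19 ± 0.14 (fold 0.916 to 1.43, adjusted p = 0.621). It was 0.04 without knockout replicate 2 and 0.34 without knockout replicate 1.

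Neither glucose transporter passed the test. Slc2a4 (ENSMUSG00000018566, chromosome 11, 69942539 to 69948188) had 269 and 192 CPM in WT muscle, against 241 and 225 CPM in the knockout, from 2460 to 5073 counts. Both knockout libraries lay between the WT libraries, which stood 1.40-fold apart. The log2 fold change was 0.01 ± 0.16, and the 95% interval of the fold, 0.786 to 1.30, is the range of change these libraries leave possible (adjusted p = 0.981). Slc2a1 (ENSMUSG00000028645, chromosome 4, 119108711 to 119137983) had 6.54 and 5.07 CPM in the WT libraries and 7.46 and 4.77 CPM in knockout muscle, from 56 to 157 counts. The knockout libraries lay on either side of both WT libraries, with a log2 fold change of 0.11 ± 0.26 (fold 0.730 to 1.61, adjusted p = 0.901). GLUT1 is also made by endothelial cells and perineurial cells, and in some species, such as humans, by red blood cells. The 10 endothelial markers summed to 256 and 275 CPM in WT and to 246 and 235 CPM in the knockout, and 0 of 10 changed. The 8 Schwann and perineurial markers summed to 146 and 133 CPM in WT muscle, against 150.5 and 150 CPM in knockout muscle, and 0 of 8 changed. Of the red blood cell markers, 2 of 5 tested rose and 0 fell, with sums of 243 and 266 CPM in WT muscle, against 549 and 389 CPM in knockout muscle. No marker of these 3 lists was at 0 in all libraries, and their part in the Slc2a1 level was not tested.

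**Figure D2:**
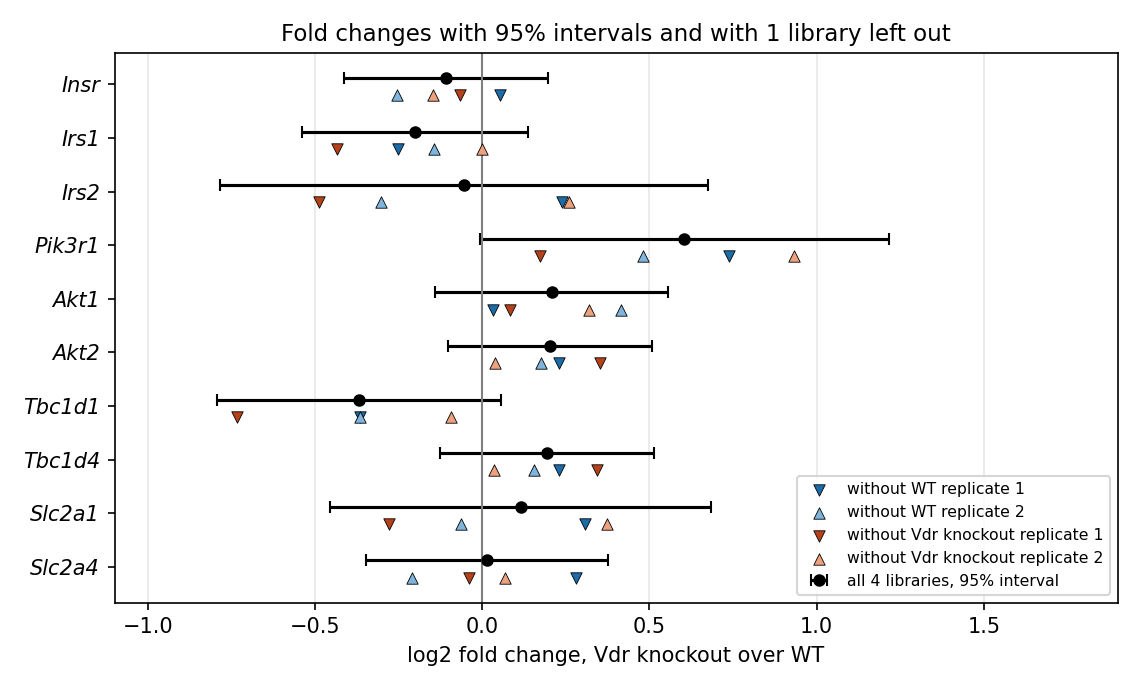
Log2 fold change of each of the 10 genes, Vdr knockout over WT, from all 4 libraries (black points with 95% intervals) and with 1 library left out (triangles). All 10 intervals hold 0, and for Pik3r1 the values run from 0.17 without knockout replicate 1 to 0.93 without knockout replicate 2.

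Without WT replicate 1, the library with Y-linked counts, 0 of the 10 genes were called and the log2 fold changes of Insr and Irs2 turned positive, at 0.05 and 0.24. Those of the transporters were then 0.28 for Slc2a4 and 0.31 for Slc2a1. Pik3r1 stood at 0.74, Akt1 at 0.03, Akt2 at 0.23 and Tbc1d4 at 0.23, with Irs1 at -0.25 and Tbc1d1 at -0.37. The largest ratio between libraries of a group was 1.68, for Pik3r1 in the knockout, followed by 1.67 for Irs2 in the knockout.

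A ratio of 2 members inside a library does not depend on the scaling between libraries, and 4 such ratios per kilobase were compared. The Slc2a4 over Slc2a1 ratio was 41.5 and 38.2 in WT and 32.6 and 47.4 in the knockout, with means of 39.8 ± 2.38 and 40.0 ± 10.5 (SD, n = 2 each). Slc2a4 thus exceeded Slc2a1 at least as much in knockout replicate 2 as in WT, and less in knockout replicate 1. Akt2 over Akt1 was 2.19 and 1.62 in WT and 1.53 and 2.24 in the knockout. Irs2 over Irs1 was 0.361 and 0.231 in WT and 0.351 and 0.282 in the knockout. For these 3 the groups overlapped and the exact two-sided permutation test over libraries gave p = 1. Tbc1d4 over Tbc1d1 was 0.884 and 0.839 in WT and 0.942 and 1.82 in the knockout, a log2 difference of 0.60. Here the groups did not overlap, and the exact permutation p was 0.333, the smallest that 2 against 2 libraries allow (adjusted p = 1 over the 4 ratios). Without knockout replicate 2 the log2 difference was 0.13, and without knockout replicate 1 it was 1.08. Without WT replicate 1 the log2 differences were 0.04 for Slc2a4 over Slc2a1 and 0.20 for Akt2 over Akt1, both negative (-0.02 each) with all libraries. They were then 0.64 for Tbc1d4 over Tbc1d1 and 0.45 for Irs2 over Irs1, which was 0.12 with all libraries.

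**Figure D3:**
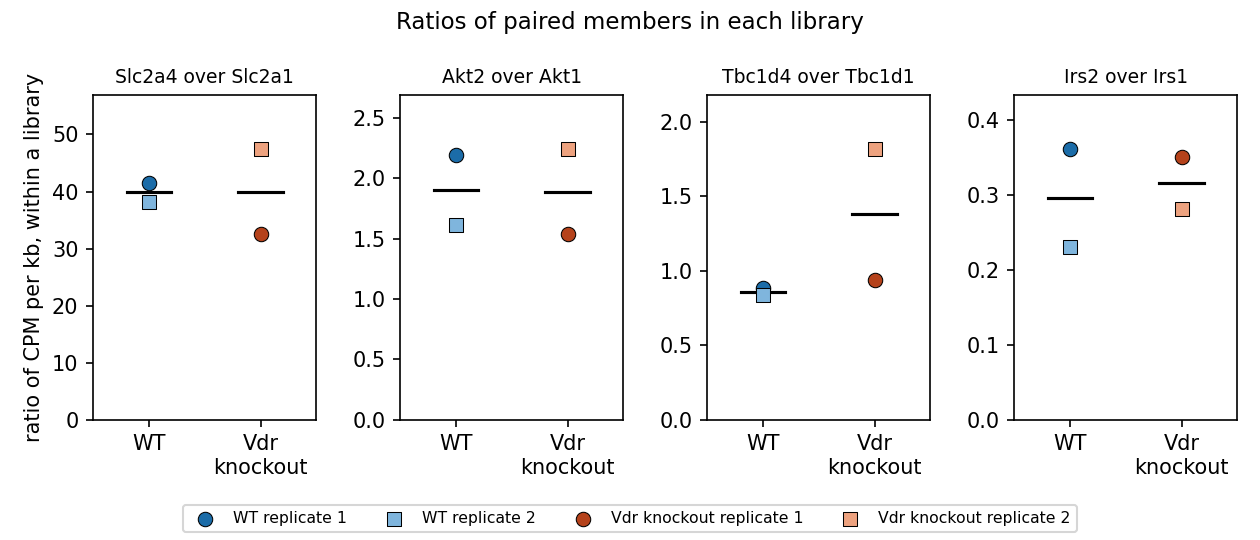
Ratio of CPM per kilobase between paired genes in each library, on linear axes from 0, with black lines at the mean of the 2 libraries of a group. WT and knockout overlap for 3 pairs, and for Tbc1d4 over Tbc1d1 knockout replicate 2 (1.82) stands apart from the other 3 libraries (0.839 to 0.942).

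The genes most like Slc2a4 and Insr in pattern were taken as those with the smallest Euclidean distance of log2 CPM, centred over the 4 libraries, among 6289 genes with a mean of at least 10 CPM. For Slc2a4 these were Hrasls, a phospholipase and acyltransferase gene (distance 0.008), Rdm1, a gene of DNA repair (0.042), and Gopc, a Golgi scaffold gene (0.042). Hrasls had 24.4 and 17.5 CPM in WT muscle, against 21.8 and 20.4 CPM in the knockout, the same order of libraries as Slc2a4. For Insr the nearest were the kinase gene Oxsr1 (0.033), Asb14, an adaptor of ubiquitin ligases (0.036), and Med25, a Mediator subunit gene (0.040). With 4 libraries and so many genes, such distances are a description of these libraries.

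Around the 10 genes, 113 of 122 other genes written down for insulin signalling and glucose uptake were tested. Of these 3 rose and 1 fell in the knockout, 3.54% of the lists beside 2.03% of all tested genes, with a median log2 fold change of -0.06. Lists of PI3-kinase and lipid phosphatase genes (10 tested, median -0.16), of kinases and targets downstream (21, median -0.07) and of inhibitors of the pathway (12, median -0.12) held 0 changed genes. The same count of 0 held for other glucose transporters, hexokinases and their regulators (12, median 0.12) and transcription factors known to act on Slc2a4 (10, median -0.03). The gene of each with the smallest p was Pik3cb, a catalytic subunit (log2 fold change 0.58, adjusted p = 0.252), Foxo3, a FoxO factor that AKT switches off (-0.44, adjusted p = 0.148), Enpp1, which binds and inhibits the insulin receptor (-0.56, adjusted p = 0.264), Slc2a3, the transporter GLUT3 (1.25, adjusted p = 0.101), and the muscle factor Mef2c (-0.34, adjusted p = 0.237). Slc2a3 was scarce, at 2.27 and 1.40 CPM in WT muscle, against 4.94 and 3.50 CPM in knockout muscle, from 18 to 104 counts.

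Of 13 receptor and adaptor genes, 2 rose and 0 fell (median 0.06). Of these, Sh2b2, also called APS, an adaptor bound directly by the receptor (chromosome 5, 136218147 to 136246556), had 2.84 and 3.36 CPM in WT muscle, against 6.23 and 9.64 CPM in the knockout (1.32 ± 0.27, adjusted p = 0.0360). Both knockout libraries lay above both WT libraries, and the call was lost without WT replicate 1 (1.21), without knockout replicate 2 (1.00) and with limma-voom on all 4 libraries (1.23, adjusted p = 0.0604).

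Fat-cell markers were higher in the same libraries as Sh2b2. Of 14 markers 10 rose and 0 fell, with a summed level of 1336 and 1629 CPM in WT and of 5245 and 4683 CPM in the knockout, and none at 0. Adipoq, for adiponectin, had 70.2 and 88.4 CPM in the WT libraries and 301 and 299.6 CPM in knockout muscle. Fat cells also express Insr, Irs1, Akt2 and Slc2a4, none of which passed the test. The part of fat cells in the levels of Sh2b2 and the 10 genes was not tested.

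Of 25 genes of GLUT4 vesicle traffic, 1 fell and 0 rose (median -0.09). It was Exoc7, a subunit of the exocyst that tethers vesicles to the plasma membrane (chromosome 11, 116288001 to 116307233), which fell from 68.1 and 71.9 CPM in WT to 39.8 and 47.3 CPM in the knockout (-0.69 ± 0.13, adjusted p = 0.0267). Both knockout libraries lay well below both WT libraries, though the call was lost without WT replicate 2 (-0.65) or knockout replicate 1 (-0.57). Of 11 genes known as FoxO targets in muscle, 1 rose and 0 fell (median 0.15). Pdk4, the kinase that turns off pyruvate dehydrogenase, had 94.7 and 84.7 CPM in WT muscle, against 133 and 141 CPM in the knockout (0.61 ± 0.12, adjusted p = 0.0345). It was called in 1 of the 4 runs that leave out a library, the one without WT replicate 1 (0.69), and stood at 0.53, 0.65 and 0.57 in the others.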

How the data were processed

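The authors deposited raw counts, one table per library of reads summed by Ensembl gene ID. Trimmomatic, STAR and DESeq2 are the tools listed in the submitters' processing notes, with GRCm38 (mm10) as the build. Their versions and settings, and which annotation was counted, were not given in the sources used here. Of 55573 gene IDs, 55480 (99.83%) matched GENCODE release M21. To check strand, genes wholly covered by exons of another gene were counted: 119 of 457 had reads where the other gene lay on the opposite strand, and 1 of 712 where it lay on the same strand, so the counts separated strands.

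Genes passing filterByExpr of edgeR 4.0.16 (minimum count 10, minimum total 15) numbered 13076 and were scaled by TMM. The test was edgeR's robust quasi-likelihood F test in R 4.3.3 on genotype alone, with p adjusted by Benjamini and Hochberg over all 13076. SE is the log2 fold change over the root of F, and intervals are 95%. The procedure was also run on simulated counts with a common dispersion for all genes and changes of 2-fold or more. Smaller changes, such as the estimates of the members, were not simulated. Gene lengths are unions of exons. Alternatives were DESeq2 1.42.0, limma-voom (limma 3.58.1), other scalings, filters and dispersions (legacy dispersions were added after seeing the data), a replicate block and leaving out each library.

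Named genes are the members, of each pathway list the changed genes or else the one with the smallest p, reference genes of the marker lists, Vdr and the 3 genes most like Slc2a4 and Insr. One changed gene of the receptor and adaptor list is counted but not reported here. The promoter motifs were chosen after values were seen. The members and lists were chosen with earlier results of these data known.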

Additional observations from a re-analysis of the deposited data

How the results depend on the processing

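Under the 8 alternatives that kept all libraries, all 80 log2 fold changes of the 10 genes kept their sign without passing the threshold, with shifts of at most 0.049. Leaving out 1 library at a time, 7 of 40 changed sign and 1, Pik3r1 without knockout replicate 2, passed the threshold, so that 1 member was called there. The ranges were -0.26 to 0.054 for Insr, -0.49 to 0.26 for Irs2, -0.28 to 0.37 for Slc2a1 and -0.21 to 0.28 for Slc2a4. For the rest they kept to 1 side of 0. They were -0.43 to -0.002 for Irs1, -0.73 to -0.09 for Tbc1d1 and 0.17 to 0.93 for Pik3r1. For Akt1 the range was 0.03 to 0.42, for Akt2 0.04 to 0.35 and for Tbc1d4 0.04 to 0.34. For the ratios, log2 differences ran from -0.29 to 0.25 for Slc2a4 over Slc2a1 and from -0.29 to 0.25 for Akt2 over Akt1. They ran from -0.20 to 0.45 for Irs2 over Irs1 and from 0.13 to 1.08 for Tbc1d4 over Tbc1d1. Without the low-count filter 476 genes were called in place of 265, and 7 of the other pathway genes in place of 4. With limma-voom 3 and with DESeq2 6 of them were called. No run that left out 1 library kept all 4 main calls, and some of these runs called other genes of the lists. The cause of these shifts was not tested. With the replicate number as a block, 346 genes and 0 of the 10 were called. The numbers share no stated litter or day, and deviations of same-numbered libraries correlated at 0.0514 over genes. Slc2a1 had the lowest counts of the 10 genes, down to 56 in a library.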
